A study of Mus musculus with 7 samples.

Results

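The regions described here are the long stretches of mouse autosome that lie between neighbouring lamin-associated domains (LADs). They were chosen by position alone: on chromosomes 1 to 19 of the deposited LAD list, each gap from the end of a domain to the start of the next one was kept where it measured at least 1000000 bp. The rule left 289 long gaps of 1109 autosomal gaps. The other gaps, 302 of 0.25 to 1 Mb and 518 under 0.25 Mb, and the 1128 autosomal LADs serve below for comparison.

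The LADs come from CUT&RUN, in which an antibody on chromatin guides a nuclease that cuts out the bound DNA. The cells were mouse embryonic fibroblasts, given in the labels as the cell line iMEF, and the design text speaks of lines derived independently from a single mouse colony. Of the 7 libraries, Lamin B1 and the control antibody IgG had 2 each, H3K9me2 had 2 with a different antibody each, and H3K14ac had 1. No treatment is given in the labels, and wild type appears only in the name of the LAD list. Which of the lines a library came from is not given in the sources used here. The gaps rest on 1 merged list, so no border has a replicate error, the read depth is unknown, and no test was made. All values are descriptions, and each SD is over the 19 autosomes.

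The nuclear lamina is a meshwork of lamin proteins under the inner nuclear membrane, and Lamin B1 is one of its main components. Chromatin that touches it is known to be poor in genes and mostly silent, while the chromatin between such domains is known to carry most of the expressed genes of a cell. Mouse autosomes have the centromere at their low-coordinate end.

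The promoters of 4 genes show how unlike the genes of the long gaps can be. Each belongs to the member farthest from a LAD, among those with a promoter in the table, of a group described below: fibroblast and matrix genes, growth and cell cycle genes, ribosomal proteins and olfactory receptors. Each line gives 300 bases of promoter from RefSeq (GRCm38.p6), from 250 bases before to 50 bases after the annotated start, 5′ to 3′, with each CpG in capitals.
Col5a1: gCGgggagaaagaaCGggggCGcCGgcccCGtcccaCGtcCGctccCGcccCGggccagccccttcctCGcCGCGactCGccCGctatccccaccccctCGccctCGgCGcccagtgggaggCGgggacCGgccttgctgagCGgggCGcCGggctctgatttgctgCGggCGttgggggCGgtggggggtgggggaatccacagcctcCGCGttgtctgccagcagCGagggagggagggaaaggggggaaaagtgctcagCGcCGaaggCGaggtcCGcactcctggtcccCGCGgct
E2f3: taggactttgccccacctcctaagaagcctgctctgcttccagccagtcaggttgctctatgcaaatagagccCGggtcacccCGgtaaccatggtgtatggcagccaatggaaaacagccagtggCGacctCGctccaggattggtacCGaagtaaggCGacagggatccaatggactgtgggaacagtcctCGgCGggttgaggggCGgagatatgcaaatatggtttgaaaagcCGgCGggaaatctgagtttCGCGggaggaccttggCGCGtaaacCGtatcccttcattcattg
Rpl27: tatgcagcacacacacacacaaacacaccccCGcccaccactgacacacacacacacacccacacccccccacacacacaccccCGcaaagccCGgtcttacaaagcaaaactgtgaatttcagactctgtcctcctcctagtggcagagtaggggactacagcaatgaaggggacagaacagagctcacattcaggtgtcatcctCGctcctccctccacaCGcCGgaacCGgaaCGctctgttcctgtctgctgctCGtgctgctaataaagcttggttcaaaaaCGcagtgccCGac
Olfr63: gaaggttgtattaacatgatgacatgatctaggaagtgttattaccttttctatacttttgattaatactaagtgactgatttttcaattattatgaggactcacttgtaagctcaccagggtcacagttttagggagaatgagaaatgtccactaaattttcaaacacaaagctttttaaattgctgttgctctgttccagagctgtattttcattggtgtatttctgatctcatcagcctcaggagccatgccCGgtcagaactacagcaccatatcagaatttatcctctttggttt
The first belongs to Col5a1, a chain of type V collagen, at chr2:27886175-27886474 on the plus strand, and holds 34 CpGs. The E2f3 promoter, at chr13:29986014-29986313 on the minus strand, holds 16, and E2f3 is a transcription factor of the cell cycle. For Rpl27, a protein of the large ribosomal subunit at chr11:101441995-101442294 on the plus strand, the count was 11. The olfactory receptor gene Olfr63, at chr17:33268476-33268775 on the plus strand, had 1. The 4 genes lay far from the nearest LAD, at 3.69 Mb for Col5a1, 6.70 Mb for E2f3, 7.03 Mb for Rpl27 and 3.20 Mb for Olfr63. These 4 promoters thus ranged from 1 to 34 CpGs.

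The long gaps hold most of the protein-coding genes of the autosomes. Together they measured 971 Mb, which was 41.0% of the 2370 Mb between the first and the last LAD of each autosome. Within the same spans they held 12980 of 19916 protein-coding genes by gene midpoint, or 65.2%. The remaining 749 autosomal protein-coding genes lay outside the first and last LAD and were not placed. Gaps of 0.25 to 1 Mb held 1565 genes, gaps under 0.25 Mb held 651 and LADs held 4720. Thus the long gaps were 26.1% of the gaps, but had 81.4% of the bases between LADs and 85.4% of the 15196 genes there.

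Gene density in the long gaps was 13.4 protein-coding genes per Mb over all of them. It was 10.3 per Mb in gaps of 0.25 to 1 Mb, 9.28 in gaps under 0.25 Mb and 4.01 in LADs. Taken by chromosome, the long gaps averaged 13.5 ± 3.80 genes per Mb (SD, n = 19 autosomes) and LADs 3.96 ± 1.79. The long gaps were the denser compartment on 19 of 19 autosomes in that comparison, with a mean difference of 9.53 ± 3.13 per Mb. Against gaps of 0.25 to 1 Mb the mean difference was smaller, 3.30 ± 3.43 per Mb, and the long gaps were denser on 16 autosomes and not on chromosomes 9, 13 and 18. Against gaps under 0.25 Mb it was 4.13 ± 3.35 per Mb, with the long gaps denser on 17 autosomes and not on 6 and 13. Without the 100 kb next to borders, which leaves little of the short gaps, that last difference was 2.12 ± 9.18 per Mb, and the long gaps were denser on 11 of 19 autosomes. The difference from LADs exceeded its spread over chromosomes. Those from the shorter gaps did not clearly do so, and the one without border zones was well within its spread.

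**Figure D1:**
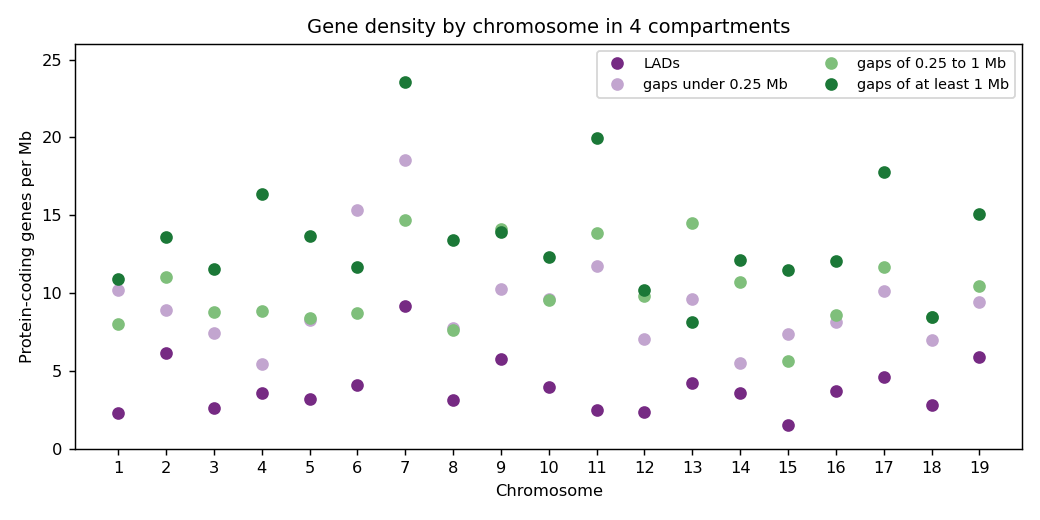
Protein-coding genes per Mb (y axis) on each autosome (x axis) in gaps of at least 1 Mb, gaps of 0.25 to 1 Mb, gaps under 0.25 Mb and LADs; each point is all regions of that kind on 1 chromosome. The points of the long gaps lie above those of the LADs on all 19 autosomes and run from 8.15 per Mb on chromosome 13 to 23.6 on chromosome 7.

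Chromosomes differed widely. Chromosome 7 had the densest long gaps, at 23.6 genes per Mb, but they covered only 30.01% of its span, the lowest share of the 19, and held 49.9% of its genes. Chromosome 15 was the opposite: its long gaps covered 60.2% of the span and held 89.7% of the genes. On average the long gaps covered 41.4% ± 7.48 of a span and held 65.4% ± 10.0 of its protein-coding genes (SD, n = 19). Chromosome 13 had the sparsest long gaps, at 8.15 genes per Mb, although the longest gap of all lies there.

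The long gaps had a median of 2.32 Mb, with quartiles of 1.51 and 4.21 Mb, from 1.02 to 15.8 Mb. The 55 gaps of at least 5 Mb carried 44.9% of the bases and 46.9% of the genes. Pooled density was 12.2 genes per Mb in gaps of 1 to 1.5 Mb, 12.3 from 1.5 to 2.5 Mb, 14.2 from 2.5 to 4 Mb, 12.7 from 4 to 6 Mb and 14.2 above 6 Mb. The median per gap was 8.53 per Mb in the shortest of these classes and 13.6 in the longest. Single gaps ran from 0 to 57.3 genes per Mb, with a median of 9.97 and quartiles of 6.65 and 15.97. In 23 gaps (7.96%) the density was below the 4.01 per Mb of LADs.

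**Figure D2:**
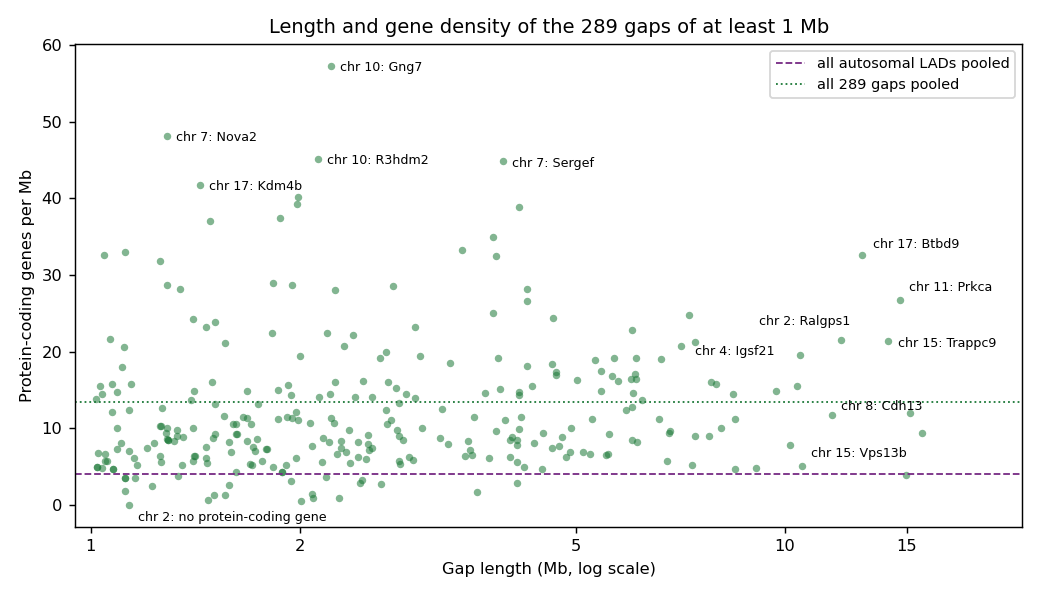
Each point is 1 of the 289 long gaps, by its length (x axis, Mb, log scale) and its protein-coding genes per Mb (y axis); lines mark the pooled density of all long gaps (13.4) and of LADs (4.01), and labels name the chromosome and longest gene of the gaps ranked 4 to 10 by length, the 5 densest and the gap with no protein-coding gene. Density varies from 0 to 57.3 per Mb, mostly among gaps under 5 Mb.

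The cutoff does not mark a break in the data. The 3 gaps just outside it measured 990, 992.5 and 997.5 kb and held 3, 14 and 6 protein-coding genes. The 3 just inside measured 1017.5, 1020 and 1022.5 kb and held 14, 5 and 5. Densities ran from 3.03 to 14.1 genes per Mb in the 3 outside and from 4.89 to 13.8 in the 3 inside.

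The gene classes other than protein-coding genes were not all placed alike. Long noncoding RNA genes followed the protein-coding ones, with 7338 of 12066 (60.8%) in the long gaps, 7.56 per Mb against 2.93 in LADs. By chromosome the lncRNA density was 7.56 ± 0.663 per Mb in the long gaps and 2.94 ± 0.430 in LADs (SD, n = 19), higher in the long gaps on all 19. For miRNA genes, whose products pair with messenger RNAs, the share was 66.6% (726 of 1090), or 0.748 per Mb against 0.177 in LADs. For tRNA genes it was 67.5% (257 of 381). In gaps of 0.25 to 1 Mb the pooled density of miRNA genes was 0.800 per Mb (121 genes), close to that of the long gaps. For tRNA genes it was 0.621 per Mb (94 genes) against 0.265 in the long gaps. Many tRNA genes are clustered, with 49 of the 257 in a single long gap and 45 in another, so few places weigh heavily. The spread of these densities over chromosomes is not given here.

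Small nuclear and nucleolar RNA genes and pseudogenes were spread more evenly. The long gaps held 458 of 912 snRNA genes (50.2%) and 525 of 1258 snoRNA genes (41.7%). The snoRNA genes, which guide the modification of other RNAs, stood at 0.541 per Mb in the long gaps and 0.510 in LADs. Pseudogenes, disabled copies of genes, were at 3.70 per Mb in the long gaps and 3.96 in LADs, with 3591 of 9063 (39.6%) in the long gaps. By chromosome they averaged 3.75 ± 0.552 and 3.88 ± 1.56 per Mb (SD, n = 19), and the long gaps were higher on 9 of 19 autosomes, so the difference of the means was far within the spread. Per 100 protein-coding genes the long gaps had 27.7 pseudogenes and LADs 98.8.

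By the median, genes in the long gaps were shorter than those in other gaps and longer than those in LADs. The median protein-coding gene in the long gaps measured 18.5 kb, against 25.7 kb in gaps of 0.25 to 1 Mb, 23.3 kb in gaps under 0.25 Mb and 10.3 kb in LADs. The mean went the other way against LADs, at 40.4 kb in long gaps and 74.2 kb in LADs. Lengths were not recomputed without the olfactory and vomeronasal receptors. Genes over 100 kb made up 9.57% in the long gaps, 12.7% in gaps of 0.25 to 1 Mb, 7.99% in gaps under 0.25 Mb and 16.4% in LADs. Bodies of protein-coding genes covered 53.8% of the long gaps and 27.9% of LADs. Just 1 of the 289 long gaps (0.346%) had no protein-coding gene, against 7.95% of gaps of 0.25 to 1 Mb, 40.0% of gaps under 0.25 Mb and 30.9% of LADs. The regions also differ in length, with medians of 2317.5, 449, 120 and 544 kb in the same order. The part of length in these shares was not tested.

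Density did not rise slowly from the border inwards. In the 100 kb next to a LAD the long gaps had 9.67 protein-coding genes per Mb, and each further 100 kb up to 1 Mb had 12.5 to 13.9. By chromosome the outermost 100 kb averaged 9.75 ± 3.35 per Mb and the next 100 kb 13.2 ± 3.92 (SD, n = 19). On the LAD side the first 100 kb had 5.54 per Mb, and 100 kb steps further in had 3.94 to 5.84. The change across the border was thus larger than any between neighbouring steps inside the gap. Of the 12980 genes, 56 (0.431%) reached across a border, and these were long, with a median of 85.8 kb against 18.4 kb for the genes wholly inside.

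**Figure D3:**
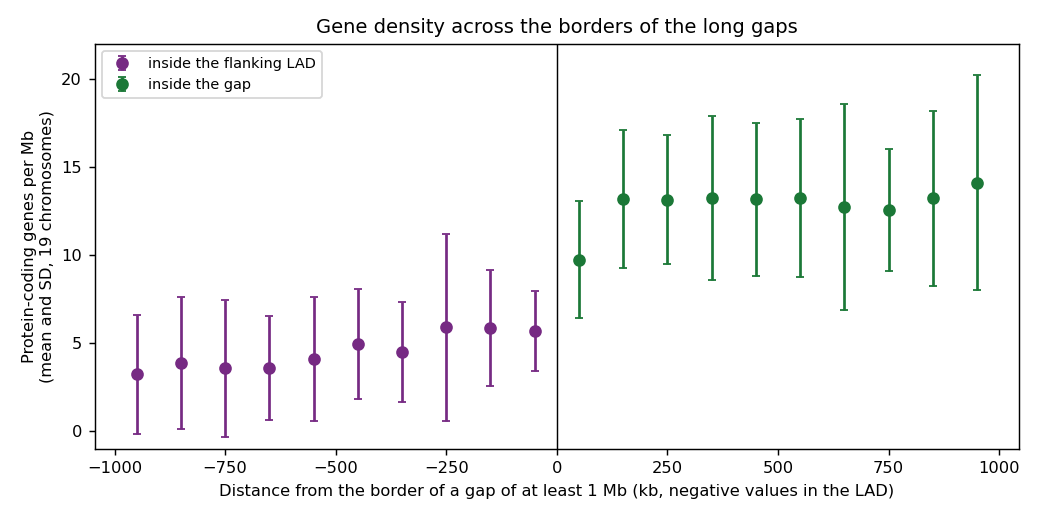
Protein-coding genes per Mb (y axis, mean and SD over 19 autosomes) in steps of 100 kb from the border of a long gap (x axis, kb), into the gap for positive and into the flanking LAD for negative distances. Means in the gap are 9.75 in the first step and 12.6 to 14.1 in the others, and those in the LAD stay at or below 5.90.

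Many genes of the long gaps lie far from any LAD, which the minimum length of these gaps makes more likely. The median distance from a gene midpoint to the nearest border was 997 kb, with quartiles of 453 and 1986 kb. A distance over 1 Mb was found for 6481 genes (49.9%), over 2 Mb for 3215, and under 100 kb for 559. Since the length of a gap bounds this distance, the 10 protein-coding genes farthest from a LAD necessarily lie in the longest gaps. On chromosome 13, in the longest gap, 6 of them lie near each other, with Hus1b at 7.70 Mb, Exoc2, a subunit of the exocyst, at 7.63 Mb, Irf4, a transcription factor of lymphocytes, at 7.51 Mb, Foxq1 at 7.47 Mb, Dusp22 at 7.44 Mb and Foxf2 at 7.40 Mb. Thsd4 (7.38 Mb) and Lrrc49 (7.38 Mb) lie on chromosome 9, Slc22a22 (7.35 Mb) on chromosome 15 and Tubg2, a gamma-tubulin, on chromosome 11 (7.31 Mb).

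LADs on either side of a long gap had a median length of 697.5 kb, against 650 kb beside gaps of 0.25 to 1 Mb and 437.5 kb beside gaps under 0.25 Mb. Of the 578 flanking positions, 87 (15.1%) were held by a LAD under 100 kb. There were 80 LADs that separate 2 long gaps. Their median was 834 kb, from 50 kb to 11.4 Mb, and 9 of them were under 100 kb.

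Of the 7 gaps that follow the 3 longest, 5 were above the pooled density of 13.4 genes per Mb. The fourth, chr11:93830377-108470330, measured 14.6 Mb and held 392 protein-coding genes, 26.8 per Mb. It contains the type I keratins, the filament proteins of epithelia and hair (27 genes), with 23 keratin-associated protein genes of hair and the 10 Hoxb genes, which pattern the body axis. Col1a1, a chain of the main fibroblast collagen, lies there 1.11 Mb from a LAD. Its longest gene was Prkca, a protein kinase C, at 410.5 kb. The groups named in this and the next paragraph, and the kallikrein and Rdh groups of the densest gaps below, were picked from the gene names after these were seen. The same holds for the single genes Notch1, Apoc1, Apoc2, Ckm and Uhrf1.

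The fifth gap, chr15:72495953-86560907, had 300 genes on 14.1 Mb (21.3 per Mb). Among them were 15 Ly6 genes of small cell-surface proteins, 12 Apol genes and 8 Cyp2d genes, cytochromes that oxidise drugs and other foreign compounds. The sixth, chr17:23534014-36468973, was the richest of these gaps in genes, with 421 on 12.9 Mb (32.5 per Mb). It holds 27 H2 genes of the major histocompatibility complex, many of which code for proteins that present antigen, besides 10 Prss serine proteases and 17 Zfp genes. The seventh, chr2:24269835-36302296, held 259 genes on 12.03 Mb (21.5 per Mb), including 11 lipocalin genes and the receptor Notch1. In the tenth, chr4:131658007-142170473 (205 genes, 19.5 per Mb), lie 5 Padi genes, whose enzymes turn arginine into citrulline in proteins, and the 3 C1q genes of complement.

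Long gaps were not always crowded. The eighth, chr8:116857838-128545300, had 137 genes on 11.7 Mb (11.7 per Mb), and its longest, the cadherin Cdh13, took up 1185 kb. The ninth, chr15:32171081-42761046, had 54 genes on 10.6 Mb. Its density was 5.10 per Mb, but bodies of protein-coding genes covered 51.9% of it, close to the 53.8% of all long gaps. Vps13b, a lipid transfer protein gene of 560 kb, was the longest there.

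The 5 densest long gaps were all under 4 Mb. The first, chr10:79475829-81693321, held 127 genes on 2.22 Mb, 57.3 per Mb, and its longest gene, Gng7, a G-protein subunit, measured only 66.3 kb. The gap chr7:18712568-20000063 followed with 62 genes at 48.2 per Mb, among them the apolipoproteins Apoc1 and Apoc2 and the muscle creatine kinase Ckm. Then came chr10:126845679-128973172 with 96 genes at 45.1 per Mb. It holds both Cdk4 and Cdk2, kinases of the cell cycle, and 7 Rdh genes of retinol metabolism. The gap chr7:43252491-47179977 had 176 genes at 44.8 per Mb, of which 26 were kallikreins, a family of secreted serine proteases. It also holds Myod1, a regulator of muscle, and 5 potassium channel genes. The fifth, chr17:55911412-57348906, had 60 genes at 41.7 per Mb, with Uhrf1, which keeps DNA methylation in place, and Kdm4b, a histone demethylase, as its longest gene (77.8 kb).

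The 5 sparsest long gaps were short as well, from 1.14 to 2.28 Mb. On chr2:107859570-108994565 there was no protein-coding gene, but 3 lncRNA genes, 3 snoRNA genes and 5 pseudogenes. The gap chr5:79924560-81932052 held 1 protein-coding gene, Adgrl3, a latrophilin receptor of neurons that measured 809 kb, and no lncRNA gene. On chr18:54366345-55843839 the 1 protein-coding gene was Zfp608, beside 13 lncRNA genes, 1 snoRNA gene and 6 pseudogenes. On chr2:44287271-46567263 were 2 protein-coding genes, Gtdc1 and Zeb2, with 13 lncRNA genes. Zeb2 is a repressor of epithelial genes that mesenchymal cells express. The gap chr15:21841113-23933606 also had 2, of which the cadherin Cdh18 covered 929 kb.

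Between the extremes, gene length changed with density. The 29 densest gaps had 24.3 genes per Mb or more and held 24.7% of all long-gap genes on 10.3% of the bases, with a median gene of 10.4 kb. The 29 sparsest, at 4.69 per Mb or less, held 205 genes (1.58%) on 7.12% of the bases, with a median gene of 50.1 kb. The median over gaps of the longest gene was 126 kb in the densest and 367 kb in the sparsest.

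The 3 gaps with the most miRNA genes were among these long ones: the sixth (30), the fifth (22) and the seventh (20). From them, 6 mature sequences are printed. Of these, let-7c and let-7b share a seed within a gap, miR-219a is encoded in 2 of the gaps, and the other 3 have seeds of their own. They were picked after the list of miRNAs was seen. Sequences are from RefSeq (GRCm38.p6), 5′ to 3′, with the seed, bases 2 to 8, in capitals.
miR-33-5p: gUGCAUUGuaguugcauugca
let-7c-5p: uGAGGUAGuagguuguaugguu
let-7b-5p: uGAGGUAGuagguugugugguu
miR-219a-5p: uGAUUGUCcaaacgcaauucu
miR-126a-3p: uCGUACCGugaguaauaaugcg
miR-199b-3p: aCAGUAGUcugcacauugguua
The first 3 come from the chromosome 15 gap, where Mir33 lies within Srebf2, a regulator of cholesterol synthesis, and Mirlet7c-2 and Mirlet7b neighbour each other. Both let-7 products share the seed GAGGUAG. Of 11 annotated mouse autosomal genes with that seed inside the spans, 6 (54.5%) were in long gaps, against 66.6% of all miRNA genes. The miR-219a-5p sequence is encoded both by Mir219a-1 in the chromosome 17 gap and by Mir219a-2 in the chromosome 2 gap. The endothelial miR-126a and miR-199b also lie in the chromosome 2 gap.

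Gene families were set by symbol, and each share is read against the 65.2% of all protein-coding genes in the spans. The lists of families and genes were made with earlier results of these data known. Of 35 families, 23 had a larger share in the long gaps than that and 12 a smaller one. The 95% exact binomial interval of the share, which treats neighbouring genes as independent, took in 65.2% for 11 of the 23 and 3 of the 12. That share counts the olfactory and vomeronasal receptors, which are many and mostly in LADs, and without them it was 69.7%. Against 69.7%, a comparison chosen after the values were seen, 21 families lay above and 14 below, with the histone and Fox genes changing side. The interval lay wholly above the share for 7 families in place of 12, since those of the mitochondrial ribosomal proteins, tRNA synthetases, Mediator, complex I (Nduf) and Wnt genes then took it in. The families of protein synthesis and turnover lay above it in 6 of 6 cases, 5 of them with the interval above it too (3 against 69.7%), with 240 of 286 genes (83.9%). Cytosolic ribosomal proteins had 62 of 76 genes (81.6%) in long gaps, spread over 46 gaps on 18 chromosomes. Mitochondrial ribosomal proteins had 56 of 70, aminoacyl-tRNA synthetases, which load tRNAs, 31 of 37, and translation initiation factors 41 of 45 (91.1%). Genes with Psm symbols, which are mostly subunits of the proteasome, had 44 of 50 in long gaps and none in LADs. Of the tRNA synthetases, too, none was in a LAD, and the 6 outside the long gaps (Dars, Ears2, Farsb, Lars, Rars2 and Wars2) were in gaps of 0.25 to 1 Mb.

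**Figure D4:**
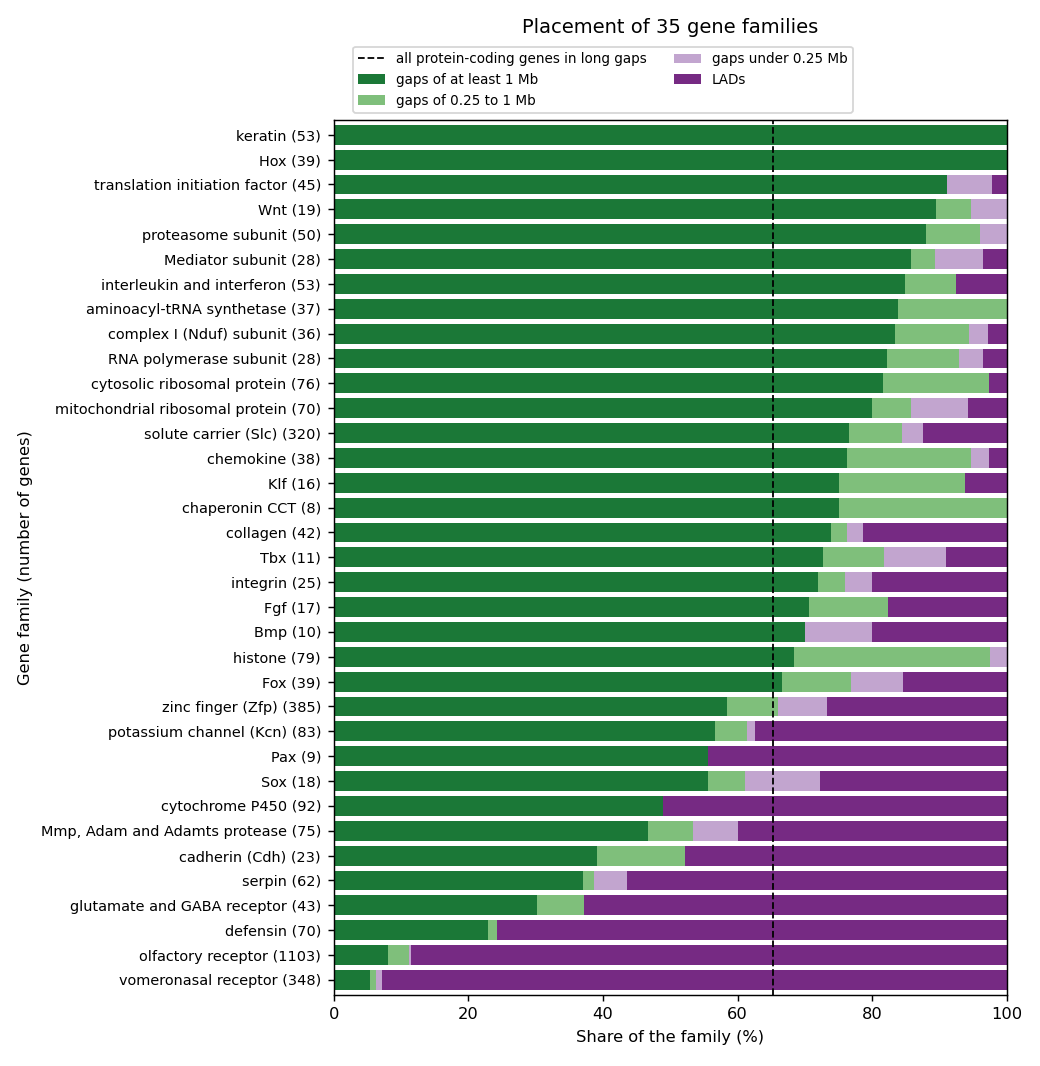
Share of each of 35 gene families (y axis, with the number of genes in the spans) in long gaps, gaps of 0.25 to 1 Mb, gaps under 0.25 Mb and LADs (x axis, % of the family); the dashed line is the 65.2% of all protein-coding genes in long gaps. Keratin and Hox genes are wholly in long gaps, while vomeronasal and olfactory receptors have 5.46% and 8.07% there.

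Among families of transcription and chromatin, RNA polymerase subunits had 23 of 28 genes (82.1%) in long gaps, with an interval of 63.1% to 93.9% that takes in 65.2%, and subunits of Mediator, the complex that links transcription factors to polymerase II, had 24 of 28. Complex I of the respiratory chain was similar, with 30 of 36. Histone genes had 54 of 79 (68.4%, interval 56.9% to 78.4%), of which 31 lay in the longest gap, on chromosome 13. Another 23 were in gaps of 0.25 to 1 Mb and none was in a LAD. The Zfp zinc finger genes, with 225 of 385 (58.4%), were below the share of all genes. Their fullest gap, chr7:27082542-31222528, held 24 of them.

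Developmental regulators were above the share of all genes in 7 of 9 families, but only for 2 of these, Hox and Wnt, did the interval leave out 65.2%. Against 69.7% the interval of Wnt, which starts at 66.9%, took in the share. The interval of Hox counts 39 clustered genes in 4 gaps as independent placements, so it cannot show that Hox stands apart. All 39 Hox genes lay in 4 long gaps, which are those of the Hoxa cluster (11 genes, 8.49 Mb, chromosome 6), the Hoxb cluster (10, chromosome 11), the Hoxc cluster (9, chromosome 15) and the Hoxd cluster (9, chromosome 2). The gap around Hoxd measured 1.66 Mb with 19 genes. Of the Wnt genes, which code for secreted signals, 17 of 19 were in long gaps, and the exceptions Wnt16 and Wnt5a were in shorter gaps. The Fox factors had 26 of 39, and Foxa1, Foxa2, Foxd3, Foxi1, Foxi2 and Foxp2 were in LADs. Sox (10 of 18) and Pax (5 of 9) genes were below the share of all genes, with intervals of 30.8% to 78.5% and 21.2% to 86.3% that take in 65.2%. So did those of Fox (49.8% to 80.9%), Tbx, Klf, Fgf and Bmp. Sox5, Sox6, Sox11, Sox14 and Sox17, and Pax1, Pax3, Pax6 and Pax9, lay in LADs.

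Genes of the cell surface and the matrix varied by family. All 53 keratin genes lay in 2 long gaps, with 27 on chromosome 11 and 26 on chromosome 15 (chr15:96240878-103510854). The second of these also holds the Hoxc cluster. Collagens had 31 of 42 genes (73.8%) in 25 long gaps and 9 in LADs, which included Col11a1, Col22a1 and Col6a4 to Col6a6. Integrins, the receptors for matrix, had 18 of 25, and the intervals of both families take in 65.2%. The Mmp, Adam and Adamts proteases had 35 of 75 (46.7%) and cadherins 9 of 23 (39.1%), both below the share of all genes.

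Neuronal and sensory families were below it in 4 of 4 cases, though the interval of the potassium channels reached 67.5%. Potassium channels had 47 of 83 (56.6%) and receptors for glutamate and GABA 13 of 43 (30.2%). Of the olfactory receptors, 89 of 1103 (8.07%) were in long gaps and 976 in LADs, and of the vomeronasal receptors 19 of 348 (5.46%) and 323. The 89 olfactory receptors were spread over 18 gaps on 12 chromosomes, and the fullest of these, chr11:57422992-63437972, held 24 of them (27.0%). Of the 19 vomeronasal ones, 15 lay in chr6:82529387-92954353.

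Secreted proteins of defence fell on both sides. Interleukins and interferons had 45 of 53 (84.9%), with 16 interferon genes in chr4:88440644-89730639, a gap of 1.29 Mb. Chemokines, which attract leukocytes, had 29 of 38, with an interval of 59.8% to 88.6% that takes in 65.2%. Defensins had 16 of 70 (22.9%) and serpins, inhibitors of proteases, 23 of 62 (37.1%), 16 of which were in the longest gap. Cytochrome P450 genes had 45 of 92 (48.9%) in long gaps and 47 in LADs, with none in a shorter gap.

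Families differed in how widely they were scattered. The 245 solute carrier genes in long gaps (of 320, 76.6%) occupied 123 gaps, and the fullest held 2.45% of them. By contrast the fullest gap held 57.4% of the histone genes in long gaps, 50.9% of the keratins, 69.6% of the serpins, 68.8% of the defensins and 78.9% of the vomeronasal receptors. Clustered members share a position and are not independent placements.

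Genes typical of the cell type were mostly in long gaps, and so were genes of other cell types. In a list of fibroblast and matrix genes, 28 of 31 within the spans (90.3%) lay in long gaps, at a median of 772 kb from a LAD. Examples were Fn1, for fibronectin, at 402 kb from a LAD, Vim, for the filament protein vimentin, at 764 kb, and Prrx1, a factor of limb mesenchyme, at 2764 kb. Close to a border were Postn (51.7 kb), which codes for periostin, and the growth factor receptor Pdgfra (97.3 kb). The exceptions were Lox, which crosslinks collagen, and the smooth muscle actin Acta2, both in gaps of 0.25 to 1 Mb, and the collagenase Mmp2, in a LAD. Of the growth and cell cycle genes, 19 of 23 (82.6%) were in long gaps and none in a LAD, with Jun, Ccne1, Ccnb1 and Mki67 in gaps of 0.25 to 1 Mb. Of the genes of other lineages, 23 of 28 (82.1%) were in long gaps. Among these were Alb of liver, Cd3e of T cells, Myog of muscle and Gfap of astrocytes, while Gcg, Ptprc and Neurod1 were in LADs. Against the 65.2% of all protein-coding genes, the 95% exact binomial interval was 74.2% to 98.0% for the fibroblast and matrix genes, 61.2% to 95.05% for the growth and cell cycle genes and 63.1% to 93.9% for those of other lineages, and the latter pair of intervals takes in that share. The difference between the lists was not tested.

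Promoters of the long gaps resembled those of the other gaps and differed from those of LADs. A promoter of 300 bases was matched for 15954 of the protein-coding genes, 10362 of them in long gaps. CpG content is given as observed over expected, the number of CpGs relative to that from the numbers of C and G alone, and a promoter is called CpG-rich at 0.6 or more. In all compartments together 49.4% were CpG-rich. The share was 59.4% in long gaps, 62.2% in gaps of 0.25 to 1 Mb, 62.7% in gaps under 0.25 Mb and 15.7% in LADs. Median values were 0.696, 0.713, 0.710 and 0.190 in the same order. Leaving out the olfactory and vomeronasal receptors gave 60.0% in long gaps and 22.3% in LADs.

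**Figure D5:**
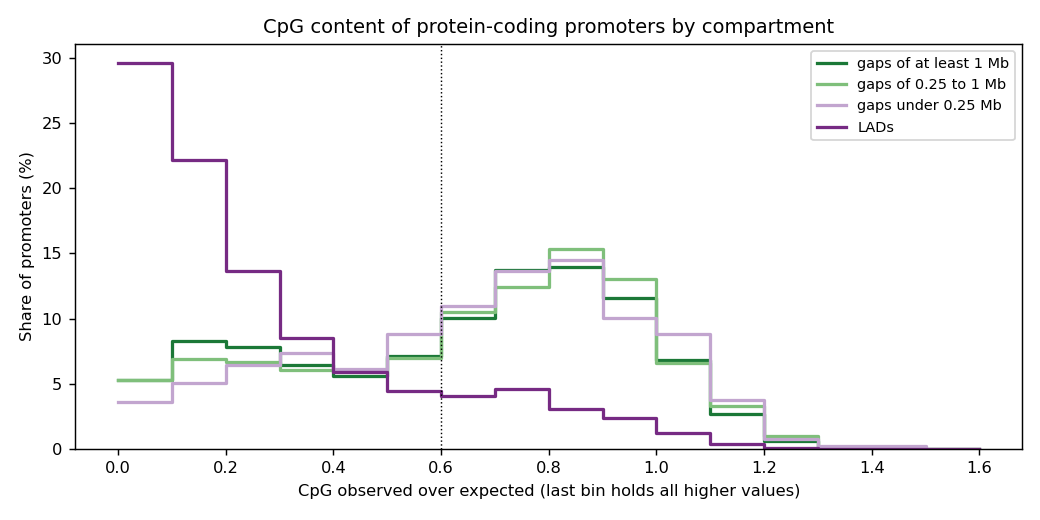
Share of protein-coding promoters (y axis, %) in bins of CpG observed over expected (x axis) for long gaps, gaps of 0.25 to 1 Mb, gaps under 0.25 Mb and LADs; the dotted line is 0.6. The 3 kinds of gap have nearly the same curve, with medians of 0.696 to 0.713, and LAD promoters gather at low values, with a median of 0.190.

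The motif TATAAA, searched on both strands, was in 13.7% of all these promoters, 9.42% of those in long gaps and 27.1% of those in LADs. Without the olfactory and vomeronasal receptors it was in 11.4% of all, 9.35% in long gaps and 20.6% in LADs. The motif CCAAT, searched in the same way, was in 39.1% of all promoters, 38.3% in long gaps and 41.7% in LADs. A promoter with both motifs was counted for each. LAD promoters were poorer in G and C, with a median of 44.3% against 59.3% in long gaps, and the part of base composition in the TATAAA shares was not tested.

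Within the long gaps, families differed more in promoters than the kinds of gap did. CpG-rich promoters were found for 28 of 30 translation initiation factors, 46 of 50 mitochondrial ribosomal proteins and 40 of 47 cytosolic ribosomal proteins. The opposite held for keratins (3 of 36), interleukins and interferons (1 of 37) and olfactory receptors (0 of 76). TATAAA was in 19 of 36 keratin promoters and 22 of 48 histone promoters, against 2 of 30 for the initiation factors. Of the lists, growth and cell cycle genes had 11 of 14 CpG-rich promoters, fibroblast and matrix genes 5 of 18 and genes of other lineages 4 of 16. Single promoters can depart from their group, as those printed at the start show. Col5a1 reached 0.809, although the median of its list was 0.392, and Rpl27, at 0.536, was below the 0.909 of the ribosomal proteins. E2f3 (0.702) and Olfr63 (0.0992) were on the same side of 0.6 as most of their groups. Promoters in the 29 densest gaps were CpG-rich in 52.8% of 2614 cases, and those in the 29 sparsest in 62.5% of 112.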

How the data were processed

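The authors deposited 1 BED list of LADs, whose start and end columns are positions in bp, counted here from 1. The score column of the deposited list held 0 in every line and was not used. Bowtie2 and mm10 are named in the submitters' processing notes, with no role or version. How domains were called, at which threshold, and whether IgG or spike-in reads entered, is not given in the sources used here. That the list merges both Lamin B1 libraries rests on its name. All 289 gap lengths differed from whole steps of 2500 bp by at most 50 bp, which limits the precision of borders. The depth per library is unknown.

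Gaps were taken between neighbouring domains of an autosome, and ends outside the first and last LAD were left out. RefSeq genes and promoters (GRCm38.p6, the assembly of mm10) were placed by gene midpoint with python 3.11.15, pandas 2.3.3 and numpy 2.4.6. The placement was tested on simulated data. Intervals are 95% exact binomial (scipy 1.17.1) and cover counting error only. The regions named are the gaps ranked 4 to 10 by length, the 5 densest and 5 sparsest, the fullest gap of families with 10 or more genes there, the gaps at the threshold and the 10 genes farthest from a LAD. The other Hox and keratin gaps were added after their values were seen. Members, families and lists were chosen with earlier results of these data known. No hypothesis test was run. No genome sequence was used, so unsequenced bases inside gaps were not counted.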

Additional observations from a re-analysis of the deposited data

How the results depend on the processing

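With a minimum of 2 Mb there were 168 gaps in place of 289, and with 500 kb 410, while the total length (796 to 1062 Mb over the alternatives) stayed within 1.5 times the 971 Mb. The share of protein-coding genes in long gaps (65.2%, 95% exact binomial interval 64.5% to 65.8%) was 69.6% with a minimum of 500 kb, 54.4% with 2 Mb, 66.1% without LADs under 100 kb, 66.4% with the chromosome ends added, 57.3% for all annotated genes, 69.7% without olfactory and vomeronasal receptors and 72.9% without the 100 kb next to borders. It stayed in that interval with the start, the end, the whole gene or any overlap in place of the midpoint. The density of 13.4 per Mb (exact Poisson interval 13.1 to 13.6) became 13.119 with 500 kb, 13.611 with 2 Mb, 13.129 without LADs under 100 kb, 12.9 with chromosome ends, 26.9 for all annotated genes and 13.602 without the 100 kb next to borders. These alternatives change which bases or genes are counted. The mean difference from LADs over chromosomes was 14.9 per Mb for all annotated genes, that from gaps under 0.25 Mb 7.26 and that from gaps of 0.25 to 1 Mb 4.18 ± 7.25 (SD). For protein-coding genes, leaving out each chromosome in turn kept the difference from LADs between 9.09 and 9.84. The difference from gaps of 0.25 to 1 Mb was 2.99 to 3.84 and that from gaps under 0.25 Mb 3.76 to 4.56 on leaving out each chromosome. Without the 100 kb next to borders the long gaps exceeded gaps under 0.25 Mb on 11 of 19 chromosomes, by 2.12 ± 9.18 (SD). For all genes of the promoter table, 44.7% of long-gap promoters were CpG-rich, 10.8% held TATAAA and 36.7% held CCAAT. Of 70 family shares recomputed with whole genes or without LADs under 100 kb, all 70 stayed within their intervals, and none changed its side of the share of all genes. With that share taken without olfactory and vomeronasal receptors, chosen after seeing the data, 21 families in place of 23 lay above it, and 7 in place of 12 with their interval above it. No paired analysis was possible because the borders come from 1 merged list. A list without either Lamin B1 library could not be made from it. Without depth, it is unknown how many short LADs a deeper library would place inside the long gaps.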

Other observations

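Long gaps of the X chromosome, which the account of the autosomes leaves out, were few. There were 14 of at least 1 Mb among its 159 gaps, and they covered 38.0 Mb, or 22.8% of its span. They held 437 of 961 protein-coding genes (45.5%), at 11.5 per Mb against 3.38 in its LADs. The longest measured 5.07 Mb and the median was 2.67 Mb.

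When each autosomal span was divided into 3 equal stretches from the centromere-proximal end, long gaps in the first had 11.5 protein-coding genes per Mb, those in the second 12.7 and those in the last 16.01, in 99, 97 and 93 gaps. These values pool all chromosomes. Taken by chromosome, the last stretch exceeded the first by 3.04 ± 8.33 per Mb (SD, n = 19 autosomes), a difference well within its spread. It was the denser on 13 autosomes and not on 7, 13, 14, 16, 17 and 19. On chromosome 7 the first stretch had 35.1 per Mb and the last 21.03, and on chromosome 15 the values were 5.12 and 23.02.

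Direction was counted for long-gap genes with a matched promoter. Among those whose start lay within 50 kb of a border, 119 of 203 (58.6%, 95% exact binomial interval 51.5% to 65.5%) were transcribed away from the LAD. Genes were placed by midpoint, so a gene read towards the LAD with its midpoint there was not counted. This selection alone can raise the share next to the border, so no conclusion is drawn from it. At 50 to 100 kb it was 157 of 301 (52.2%, 46.4% to 57.9%), and beyond 500 kb 3702 of 7434 (49.8%). For the gene nearest each border, at any distance, the share was lower, 225 of 519 (43.4%, 39.0% to 47.7%), so the direction depends on which genes are taken. Neighbouring genes are not independent, and the difference between these shares was not tested. Start sites within 1 kb of another start on the opposite strand that is read the other way were also counted, for genes with a matched promoter. They were found for 9.73% of 10362 such genes in long gaps and 10.4% of 1251 in gaps of 0.25 to 1 Mb. In gaps under 0.25 Mb it was 8.96% of 558 and in LADs 1.00% of 3783.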
